A study of Arabidopsis thaliana with 8 samples.

Results

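The 56 genes described here encode proteins that build, loosen or cut the plant cell wall. The rule uses gene symbols and no measured value, and takes the probes whose symbol starts with CSL, CESA, EXPA, EXPB, EXLA, EXLB, XTH, GH9, PME, GATL, GAUT, FLA or AGP followed by letters or digits, without EXPA21 and without symbols that are locus numbers. They are 56 of 14278 genes that the platform annotation names, on an array that gave 26651 rows (genes and unnamed probes), and each of them had 1 probe. The list held 17 GH9, 11 EXPA, 8 CSL, 8 XTH, 5 EXPB, 3 EXLA, 1 EXLB, 2 PME and 1 GAUT gene, and no probe carried a CESA, GATL, FLA or AGP symbol. RefSeq names 201 Arabidopsis loci with these prefixes, and the coverage of the families was uneven, with 17 of 21 GH9, 11 of 22 EXPA, 8 of 26 CSL, 8 of 30 XTH, 2 of 16 PME and 1 of 13 GAUT loci among the 56.

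The arrays compared siliques, the seed pods of Arabidopsis thaliana, at 2 stages. The 90%-late sample combined 90% siliques harvested 6 to 10 days after pollination (DAP) with 10% early siliques, and the early sample held siliques of 2 to 5 DAP. Target was prepared in 4 regimes, so that methods suited to microdissected tissue could be set against conventional labelling. IVT used 5 µg of total RNA and 1 round of in vitro transcription, 2IVT used 50 ng and 2 rounds, PCR used 50 ng and 20 cycles, and the unamplified regime labelled 30 µg directly. Each regime was hybridized on 2 slides, with duplicate preparations of early target against, per the labels, a single preparation of 90%-late target. All 8 hybridizations drew on the same pair of RNA samples, so the spread given below is technical and holds no variation between plants. In the amplified regimes both slides shared 1 amplification of 90%-late RNA, so no SD, SE or p value below covers variation between such amplifications. No genotype or ecotype is given in the labels. The 90%-late target carried Cy3 and the early target Cy5 on every slide, so stage and dye cannot be told apart. Each value is a log2 ratio of 90%-late over early, so a positive value is higher in 90%-late siliques. The ratios give no expression level, so the presence of markers of pod wall or seed could not be checked from them.

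The growing plant cell wall is a network of cellulose microfibrils tied together by hemicelluloses such as xyloglucan and mannan, and embedded in pectin. Cellulose synthase-like (CSL) proteins include enzymes that make hemicellulose backbones, and expansins loosen the contacts between cellulose and hemicellulose without cutting them. Xyloglucan endotransglucosylase/hydrolases (XTH) cut and rejoin xyloglucan, and the endo-1,4-beta-glucanases of glycoside hydrolase family 9 (GH9) cut glucan chains. Pectin methylesterases (PME) remove methyl groups from pectin and GAUT proteins take part in making it. In a silique the pod elongates first, while the seeds inside fill and build their coats later.

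More of these genes were lower than higher in 90%-late siliques in every regime. In the IVT regime 27 of 55 measured members were lower and 10 higher, in 2IVT 25 of 50 lower and 9 higher, in PCR 18 of 48 lower and 5 higher, and in unamplified RNA 25 of 54 lower and 10 higher. A gene was called where the Benjamini-Hochberg adjusted p of the regime mean in limma, over all rows, was below 0.05. Over all rows tested the share called lower was 32% for IVT, 26.2% for 2IVT, 16.4% for PCR and 26% for unamplified RNA, and the share called higher was 22.6%, 20.9%, 15.1% and 17.7% in the same order. Among the members the share lower was 49.1%, 50.0%, 37.5% and 46.3%, above that of all rows in each regime, while the share higher was 18.2%, 18.0%, 10.4% and 18.5%. The shares over all rows are also the background for the family counts below, which were not tested against them. In these whole siliques fewer cells of a type and less RNA per cell cannot be told apart.

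The changes were also large next to those of the array as a whole. A call with at least a 2-fold change was made lower for 18 members after IVT, 13 after 2IVT, 6 after PCR and 14 without amplification, against 8.22%, 5.64%, 1.05% and 4.27% of all rows. It was made higher for 7, 5, 2 and 5 members, against 8.96%, 6.9%, 2.43% and 6.19% of all rows. Over the 45 members measured in all 4 regimes the median size of the log2 ratio was 0.949 after IVT, 0.676 after 2IVT, 0.333 after PCR and 0.764 without amplification, and over all 20465 such rows it was 0.392, 0.311, 0.245 and 0.306. A 2-fold mean ratio was reached by 21 of the 45 after IVT, 16 after 2IVT, 8 after PCR and 17 without amplification, beside 17.8%, 12.5%, 3.62% and 11.1% of these rows. Sizes were smallest after PCR among the members and over all rows alike.

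Of the 45 members, 14 were lower in all 4 regimes and 3 were higher in all 4, while 7 passed in none. In the main fit no member was called higher in one regime and lower in another. EXPA7, lower after IVT and PCR, was called higher without amplification under median centring (0.42), equal spread (0.46) or a replicate block (0.36). Over all 20465 rows 6.15% were lower in all 4 regimes and 5.65% were higher in all 4, and 20.9% passed in none, while 5.37% were called higher in one regime and lower in another. The 14 were CSLA01, CSLA03, CSLC04, EXPA20, EXPA25, EXPB3, EXLA2, GH9A3, GH9B10, GH9B11, GH9B13, GH9B17, GH9C2 and PMEPCRF, and the 3 were GH9B15, GH9C1 and GH9A4. The regimes share their RNA samples, so these are repeated measurements of 1 pair of samples. The median SD between the hybridizations of a regime was 0.093 for members after IVT, 0.15 after 2IVT, 0.114 after PCR and 0.11 without amplification.

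**Figure D1:**
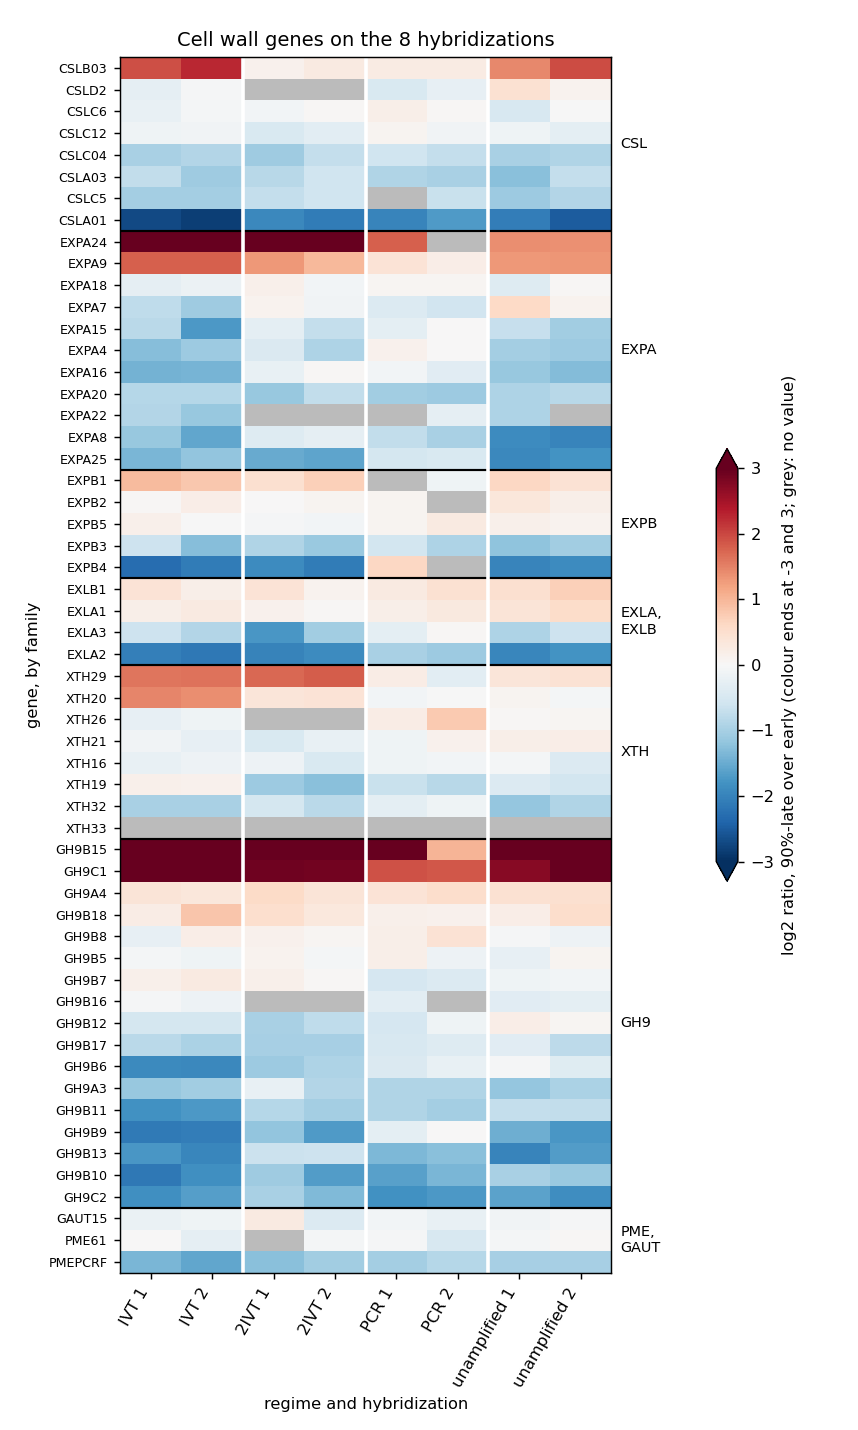
Log2 ratio of 90%-late over early for each of the 56 genes (rows, by family) on each of the 8 hybridizations (columns, by regime), with red higher in 90%-late, blue lower, grey for no value and colours ending at 3 in either direction. Blue rows outnumber red ones in all 4 regimes, the PCR columns are the palest, and XTH33 has no value on any hybridization.

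The CSL genes, some of which make hemicellulose backbones, were more often lower than higher in 90%-late siliques. Of 8 measured after IVT 4 were lower and 1 higher, of 7 after 2IVT 5 were lower, of 7 after PCR 3 were lower, and of 8 without amplification 4 were lower and 1 higher. CSLA01 (AT4G16590) belongs to the subfamily of mannan synthases. Its log2 ratio was -2.71 and -2.83 with IVT, -1.94 and -2.11 with 2IVT, -1.97 and -1.70 with PCR, and -2.06 and -2.51 without amplification. All 8 values lay between -2.83 and -1.70, the regime means fell in all 4 regimes (adjusted p 2.45e-08, 5.01e-07, 7.44e-06 and 2.07e-07 in limma), and the unamplified mean of -2.28 ± 0.31 (SD, n = 2) is 4.87-fold lower. CSLA01 ranked 6 from the lowest mean of 23633 rows after IVT and 7 of 22715 after PCR. The other member of that subfamily, CSLA03, was lower too, with means of -0.91, -0.71, -0.94 and -0.98 in the order IVT, 2IVT, PCR and unamplified.

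The CSLC genes, which make the glucan backbone of xyloglucan, split into a lower pair and a pair near 0. CSLC5 (AT4G31590) read -1.01 and -1.02 with IVT, -0.72 and -0.60 with 2IVT, -0.68 on the single PCR slide with a value, and -1.10 and -0.88 without amplification. CSLC04 had means of -0.93, -0.89, -0.66 and -0.94, so both genes fell in each regime with values on both slides. CSLC6 had means of -0.14, -0.03, 0.10 and -0.25 and CSLC12 of -0.12, -0.39, 0.00 and -0.21, of which only the 2IVT mean of CSLC12 passed (adjusted p = 0.011 in limma). CSLD2, a gene known from root hair growth, did not pass in the 3 regimes that measured it.

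CSLB03 (AT2G32530) was the only CSL gene called higher, and its ratio differed between regimes. It read 1.93 and 2.25 with IVT, 0.13 and 0.27 with 2IVT, 0.26 and 0.24 with PCR, and 1.43 and 1.95 without amplification. It was higher in 90%-late siliques after IVT (4.27-fold) and without amplification (3.23-fold), and no value of the 2IVT and PCR regimes reached the lowest of the other regimes. The difference from the unamplified mean was -1.49 ± 0.20 for 2IVT and -1.44 ± 0.20 for PCR (SE from limma, adjusted p 0.000545 and 0.000507).

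**Figure D2:**
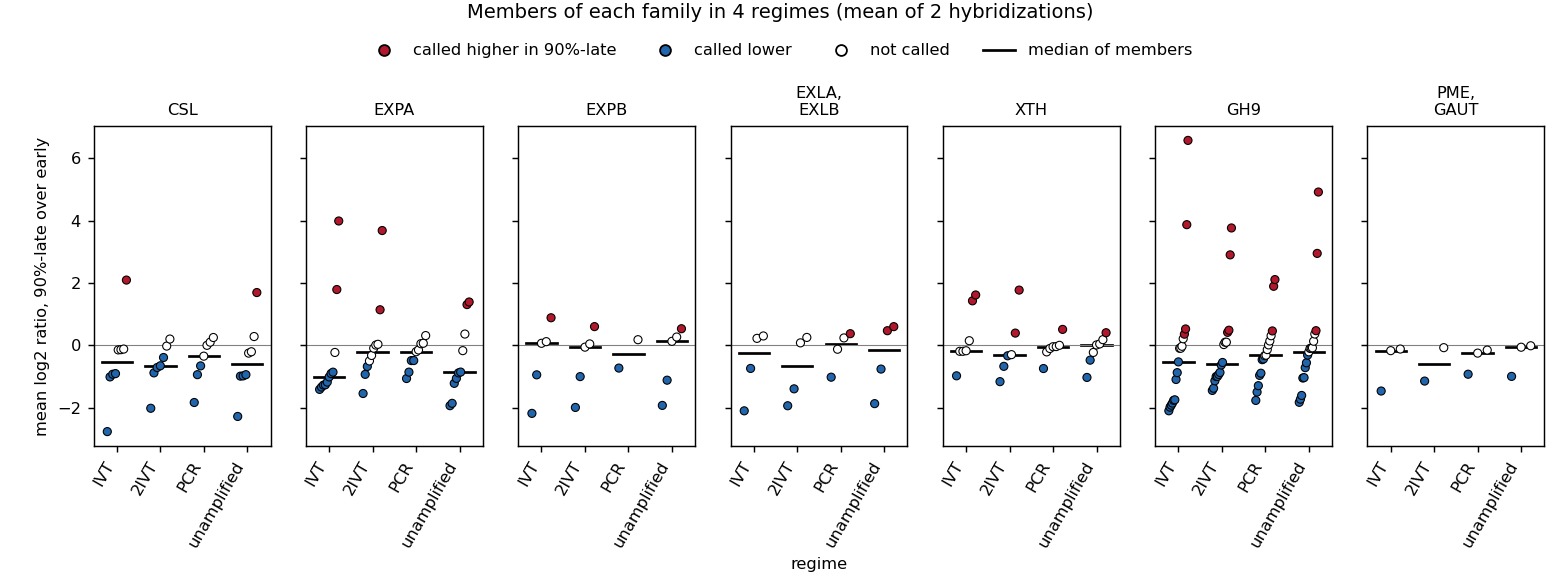
Mean log2 ratio of 90%-late over early (vertical axis) of each member in each regime (horizontal axis), in 1 panel per family, with filled points called higher (red) or lower (blue), open points not called, and bars at the family median. The EXPA median lies at -1.02 after IVT and -0.87 without amplification, but at -0.21 after both 2IVT and PCR.

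The alpha-expansins (EXPA), the best known wall-loosening proteins, were lower in 8 of 11 cases after IVT, 3 of 10 after 2IVT, 4 of 9 after PCR and 6 of 10 without amplification. They were higher in 2 cases after IVT, after 2IVT and without amplification, and in none after PCR. The family median log2 ratio was -1.02, -0.21, -0.21 and -0.87 in the order IVT, 2IVT, PCR and unamplified, beside a median of all rows between -0.08 and -0.01. With the other expansin groups added, 12 of 20 measured expansins were lower after IVT, 7 of 19 after 2IVT, 6 of 15 after PCR and 10 of 19 without amplification.

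EXPA25 (AT5G39300) and EXPA8 (AT2G40610) had the lowest unamplified means of the alpha-expansins. EXPA25 read -1.38 and -1.18 with IVT, -1.52 and -1.57 with 2IVT, -0.52 and -0.46 with PCR, and -1.93 and -1.79 without amplification. All of its values were below 0, the unamplified ones lowest and the PCR ones highest, with no overlap between regimes, and the mean fell in all 4, though after PCR not without PCR slide 1. EXPA8 read -1.13 and -1.55 with IVT, -0.38 and -0.27 with 2IVT, -0.75 and -0.97 with PCR, and -1.90 and -1.98 without amplification. Its unamplified mean of -1.94 ± 0.06 (SD, n = 2) was 3.83-fold lower, whereas the 2IVT mean of -0.33 did not pass (adjusted p = 0.051 in limma). That 2IVT mean passed over rows with values on all 8 slides and without either IVT slide.

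EXPA20 (AT4G38210) was the other alpha-expansin lower in all 4 regimes, with means between -1.07 and -0.86. It read -0.86 and -0.86 with IVT, -1.13 and -0.74 with 2IVT, -1.05 and -1.08 with PCR, and -0.93 and -0.84 without amplification. EXPA4 (AT2G39700) read -1.27 and -1.09 with IVT, -0.44 and -0.92 with 2IVT, 0.12 and 0.01 with PCR, and -1.03 and -1.10 without amplification. EXPA4 therefore fell in 3 regimes, and its PCR values lay on the other side of 0 without passing. EXPA16 had means of -1.42 after IVT and -1.22 without amplification, which passed, and of -0.09 after 2IVT and -0.21 after PCR, which did not. EXPA15 showed the widest spread of all members after IVT, with -0.81 and -1.73, and was called lower there and without amplification (mean -0.86).

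EXPA9 and EXPA24 were higher in 90%-late siliques. EXPA9 (AT5G02260) read 1.79 on both IVT slides, 1.30 and 0.98 with 2IVT, 0.42 and 0.20 with PCR, and 1.30 and 1.31 without amplification. It rose in 3 regimes, by 2.47-fold without amplification, and its PCR mean of 0.31 missed the threshold (adjusted p = 0.062 in limma). The PCR mean of EXPA9 passed with equal spread (0.39) and without either 2IVT slide. EXPA24 (AT5G39310) read 3.82 and 4.16 with IVT, 3.48 and 3.88 with 2IVT, 1.78 on the single PCR slide with a value, and 1.40 and 1.38 without amplification. Both IVT-based regimes gave it a larger ratio than unamplified RNA on every slide, a 15.9-fold increase after IVT and 12.8-fold after 2IVT against 2.62-fold without amplification.

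The root hair expansins EXPA7 and EXPA18 had small or mixed ratios. EXPA7 (AT1G12560) read -0.76 and -1.06 with IVT, 0.11 and -0.10 with 2IVT, -0.42 and -0.56 with PCR, and 0.61 and 0.11 without amplification. It fell after IVT and PCR, although the PCR call was lost when either PCR slide was left out. Its unamplified mean of 0.36 did not pass (adjusted p = 0.055 in limma). That mean passed after median centring (0.42), with equal spread (0.46) and with a replicate block, so EXPA7 was then called in opposite directions. EXPA18 passed in none of the 4 regimes, with means between -0.23 and 0.05. EXPA22 had both values only after IVT, where it fell (mean -1.02), and its single unamplified value was -0.92.

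The beta-expansins (EXPB) held members of both directions. EXPB4 (AT2G45110) read -2.28 and -2.09 with IVT, -1.89 and -2.10 with 2IVT, and -1.98 and -1.88 without amplification, which is 4.55-fold, 3.99-fold and 3.81-fold lower. Its 1 PCR value was 0.62, on the other side of 0, and it was not tested, since the test used only genes with values on both slides of a regime. EXPB3 (AT4G28250) read -0.61 and -1.28 with IVT, -0.90 and -1.11 with 2IVT, -0.54 and -0.92 with PCR, and -1.21 and -1.03 without amplification, and it fell in all 4 regimes, though after PCR not without PCR slide 2. EXPB1 (AT2G20750) read 0.96 and 0.81 with IVT, 0.49 and 0.71 with 2IVT, -0.13 on 1 PCR slide, and 0.63 and 0.44 without amplification. It rose in the 3 regimes with both values, and the unamplified call was lost without unamplified slide 1. EXPB2 and EXPB5 passed in no regime, with means between -0.06 and 0.27.

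The expansin-like genes (EXLA, EXLB) are relatives of the expansins by sequence. EXLA2 (AT4G38400) read -2.06 and -2.15 with IVT, -2.00 and -1.88 with 2IVT, -0.97 and -1.08 with PCR, and -1.95 and -1.80 without amplification. It fell in all 4 regimes, by 3.66-fold without amplification and by 2.03-fold after PCR. EXLA3 (AT3G45960) read -0.61 and -0.87 with IVT, -1.75 and -1.04 with 2IVT, -0.29 and 0.04 with PCR, and -0.92 and -0.61 without amplification, and it fell in 3 regimes and not after PCR. The call of EXLA3 was lost after IVT without IVT slide 2 and in the unamplified regime without slide 1. EXLB1 (AT4G17030) read 0.41 and 0.19 with IVT, 0.41 and 0.10 with 2IVT, 0.28 and 0.47 with PCR, and 0.48 and 0.72 without amplification. All 8 values of EXLB1 were above 0, but only the PCR and unamplified means passed. The PCR call was lost on leaving out any 1 of the 6 PCR, IVT and unamplified slides and the unamplified call without unamplified slide 2, whereas the IVT mean passed after median centring (0.38), in a fit of the IVT hybridizations alone and without either 2IVT slide. EXLA1 was called higher only without amplification (mean 0.47), with means of 0.22, 0.08 and 0.24 with IVT, 2IVT and PCR.

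The XTH family, which remodels xyloglucan, gave 1 to 3 calls in each direction in every regime. Of 7 measured after IVT 2 were higher and 1 lower, of 6 after 2IVT 2 were higher and 3 lower, of 7 after PCR 1 was higher and 1 lower, and of 7 without amplification 1 was higher and 2 lower. XTH33 had no value on any of the 8 hybridizations. XTH32 (AT2G36870) read -0.98 and -0.98 with IVT, -0.54 and -0.81 with 2IVT, -0.30 and -0.12 with PCR, and -1.16 and -0.91 without amplification. It fell in 3 regimes and its PCR mean of -0.21 did not pass.

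XTH29 and XTH20 had their highest ratios after IVT-based amplification. XTH29 (AT4G18990) read 1.61 and 1.62 with IVT, 1.73 and 1.82 with 2IVT, 0.22 and -0.31 with PCR, and 0.37 and 0.43 without amplification. It rose 3.06-fold after IVT and 3.41-fold after 2IVT, against 1.32-fold without amplification, where the call was lost when either slide was left out. XTH20 (AT5G48070) read 1.45 and 1.40 with IVT, 0.37 and 0.42 with 2IVT, -0.08 and -0.01 with PCR, and 0.07 and -0.05 without amplification. It rose after IVT and 2IVT, while its PCR and unamplified values lay around 0. The 2IVT call of XTH20 was lost without 2IVT slide 2 and in a fit of the 2IVT hybridizations alone.

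XTH19 (AT4G30290), a close relative of XTH20, read 0.16 and 0.14 with IVT, -1.09 and -1.24 with 2IVT, -0.67 and -0.82 with PCR, and -0.41 and -0.55 without amplification. It fell in 3 regimes, the IVT mean of 0.15 did not pass, and no regime overlapped another. Without unamplified slide 2 its unamplified call was lost. XTH26 (AT4G28850), known from root hairs, read -0.25 and -0.14 with IVT, 0.22 and 0.80 with PCR, and 0.03 and 0.05 without amplification, with no value after 2IVT. Its PCR mean passed (adjusted p = 0.021 in limma), and no longer did without PCR slide 2. XTH16 passed in no regime, and XTH21 passed only after 2IVT (mean -0.34).

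The GH9 glucanases included GH9B15, which had the highest mean of the list in each of the 4 regimes, and at least 7 lowered genes. After IVT 4 of 17 were higher and 9 lower, after 2IVT 4 of 16 higher and 9 lower, after PCR 3 of 16 higher and 7 lower, and without amplification 3 of 17 higher and 8 lower. GH9B15 (AT4G23560), a secreted-type glucanase, read 6.45 and 6.70 with IVT, 3.64 and 3.89 with 2IVT, 3.19 and 1.03 with PCR, and 5.38 and 4.46 without amplification. Its mean was 95.5-fold higher in 90%-late siliques after IVT and 30.3-fold higher without amplification (adjusted p 1.13e-07 and 2.05e-06 in limma), and only 3 of 23633 rows had a higher mean after IVT. The PCR slides differed most, with an SD of 1.52, the widest of any member in any regime, and without PCR slide 1 GH9B15 (1.03) ranked below GH9C1 (1.87) there.

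GH9C1 (AT1G48930), from the class that carries a carbohydrate-binding module, read 3.92 and 3.82 with IVT, 2.91 and 2.89 with 2IVT, 1.92 and 1.87 with PCR, and 2.73 and 3.17 without amplification. It rose in all 4 regimes, by 14.6-fold, 7.48-fold, 3.72-fold and 7.72-fold in the order IVT, 2IVT, PCR and unamplified, and its PCR values were the lowest of the 8. GH9A4 (AT3G43860) read 0.38 and 0.33 with IVT, 0.57 and 0.39 with 2IVT, 0.40 and 0.52 with PCR, and 0.45 and 0.49 without amplification. This small rise of 1.28-fold to 1.40-fold passed in all 4 regimes, although leaving out 1 slide ended the call after IVT, PCR and without amplification. GH9B18 was called higher after IVT and 2IVT only, with a mean of 0.36 without amplification.

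**Figure D3:**
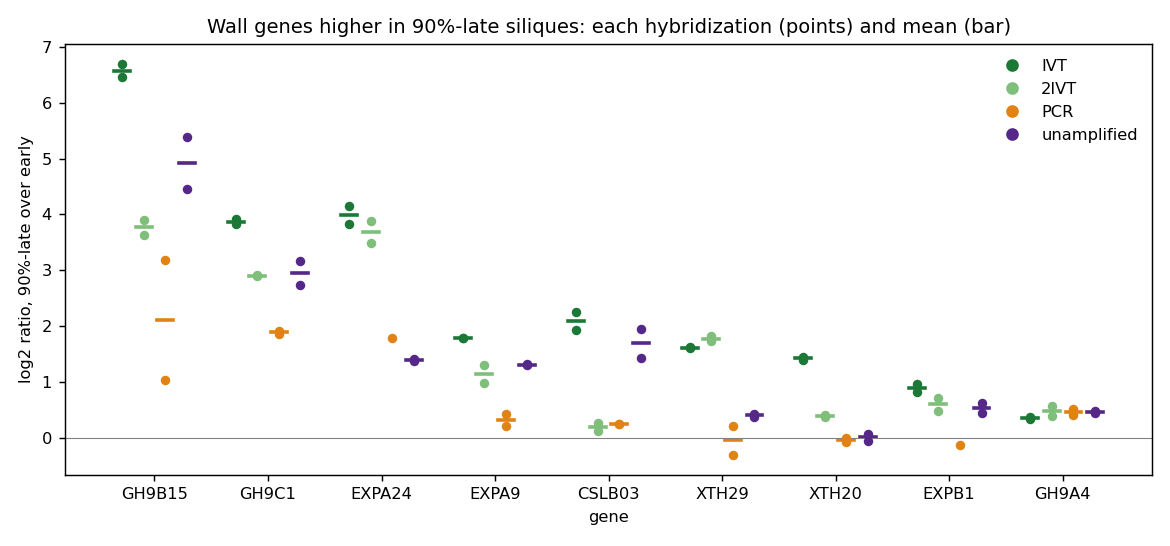
Log2 ratio of 90%-late over early (vertical axis) on each hybridization (points) with the mean of both (bars), for 9 members called higher in at least 1 regime (horizontal axis), coloured by regime. GH9B15 has the highest mean in all 4 regimes but widely spaced PCR points, EXPA24 and XTH29 sit higher after IVT and 2IVT than without amplification, and GH9A4 keeps a mean between 0.36 and 0.48 in all 4.

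GH9C2, GH9B13 and GH9A3 were the GH9 genes outside the gene clusters that fell in every regime. GH9C2 (AT1G64390), of the same class as GH9C1 but of opposite direction, read -1.85 and -1.65 with IVT, -0.97 and -1.32 with 2IVT, -1.82 and -1.72 with PCR, and -1.60 and -1.86 without amplification. Its PCR ratio was as large as the unamplified one, 3.41-fold against 3.32-fold lower. GH9B13 (AT4G02290) read -1.75 and -1.96 with IVT, -0.64 and -0.62 with 2IVT, -1.34 and -1.26 with PCR, and -1.99 and -1.67 without amplification. The smallest decrease of GH9B13 was the 2IVT one, outside the values of the other regimes. GH9A3, a relative of the membrane-anchored cellulase KORRIGAN that acts in cellulose synthesis, had means of -1.10, -0.55, -0.90 and -1.05.

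GH9B6 (AT1G23210) read -1.91 and -1.93 with IVT, -1.09 and -0.91 with 2IVT, -0.44 and -0.23 with PCR, and -0.05 and -0.37 without amplification. It fell after IVT (3.79-fold) and 2IVT (2.00-fold), and its PCR and unamplified values overlapped each other near 0 and did not pass. The PCR mean of GH9B6 (-0.33) passed as lower with equal spread (-0.38) and without either 2IVT slide. GH9B5 and GH9B8 passed in none of the 4 regimes. GH9B7 fell only after PCR (mean -0.46). GH9B16 fell without amplification (mean -0.32) and did not pass after IVT, and its single PCR value of -0.31 and the 2IVT regime, with no value, were not tested.

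Some members are direct neighbours on a chromosome, with no protein-coding gene between them in the RefSeq annotation, and they did not all move alike. GH9B9, GH9B10, GH9B11 and GH9B12 (AT2G44540 to AT2G44570) lie in a row. GH9B9 read -2.13 and -2.08 with IVT, -1.19 and -1.71 with 2IVT, -0.28 and 0.01 with PCR, and -1.47 and -1.75 without amplification. GH9B10 read -2.14 and -1.83 with IVT, -1.08 and -1.68 with 2IVT, -1.64 and -1.36 with PCR, and -0.97 and -1.11 without amplification. After IVT the values of both genes lay between -2.14 and -1.83, whereas GH9B9 had the lower unamplified ratio and GH9B10 the lower PCR ratio, with no overlap in either regime.

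GH9B11 read -1.81 and -1.72 with IVT, -0.85 and -1.03 with 2IVT, -0.91 and -1.02 with PCR, and -0.70 and -0.73 without amplification. GH9B12 read -0.54 and -0.53 with IVT, -0.98 and -0.76 with 2IVT, -0.52 and -0.12 with PCR, and 0.20 and 0.06 without amplification. Along the row the unamplified ratio thus went up step by step towards GH9B12, whose unamplified values were above 0 and did not pass. In the main fit GH9B12 was called lower only after IVT, where leaving out either slide ended the call, and after 2IVT. With equal spread its PCR mean passed as lower too (-0.37). Related genes may share signal on an array, which was not tested, since gene and probe sequences were not used here.

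In the row GH9B16, GH9B17 and GH9B18 (AT4G38990 to AT4G39010) the middle gene fell in all 4 regimes (means -0.88, -1.0, -0.44 and -0.56), while GH9B18 had means between 0.14 and 0.52. EXPA25 and EXPA24 adjoin each other, with EXPA22 at 2 genes' distance from EXPA25. EXPA25 was lower in all 4 regimes and EXPA24 higher in the 3 with values on both slides. EXLA3 and EXLA1 adjoin each other as well, EXLA3 lower in 3 regimes and EXLA1 higher in 1.

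**Figure D4:**
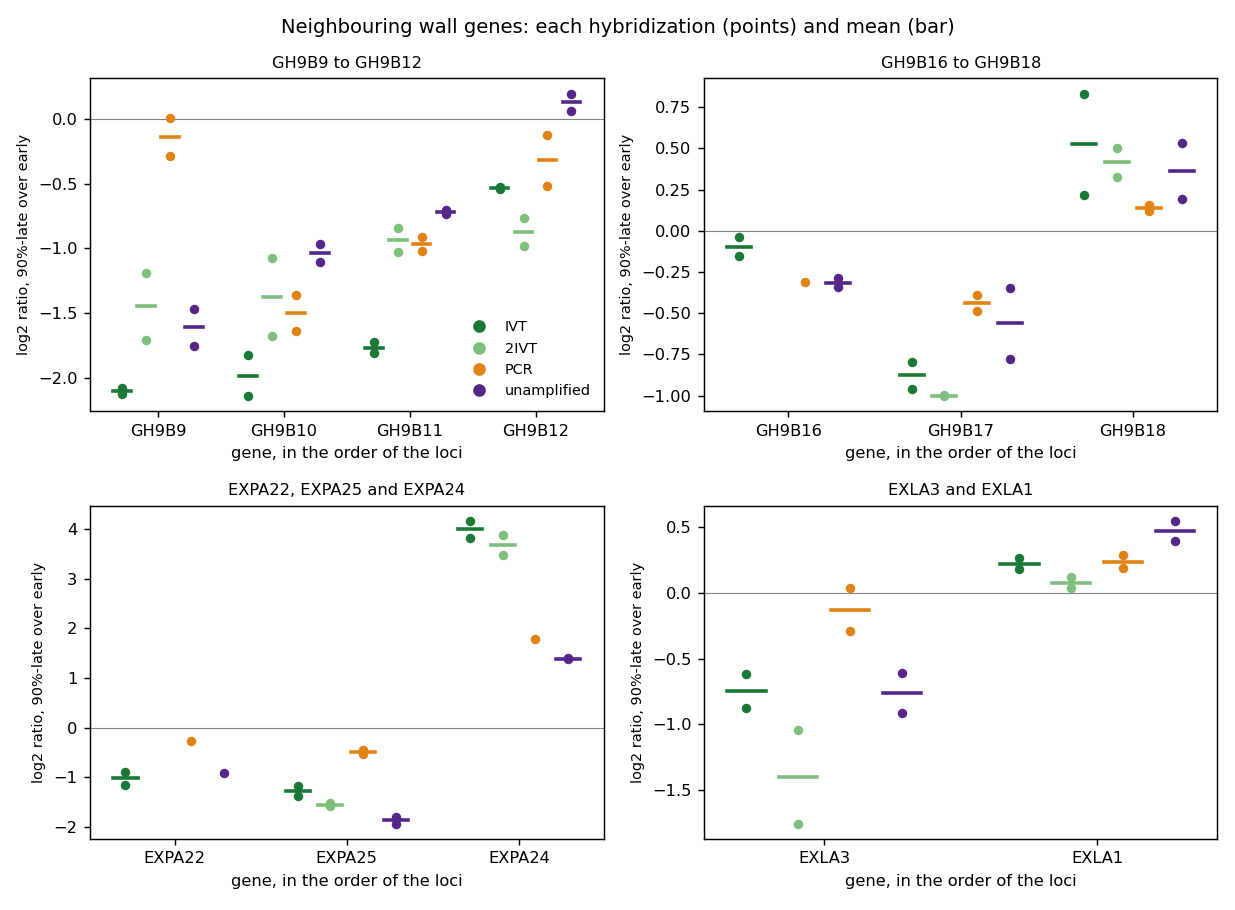
Log2 ratio of 90%-late over early (vertical axis) on each hybridization (points) with the mean where both slides had a value (bars), for neighbouring members in the order of their loci (horizontal axis), coloured by regime, with a vertical scale of its own in each panel. Unamplified ratios run from a mean of -1.61 for GH9B9 to 0.13 for GH9B12, and EXPA24 stands apart from EXPA25 and EXPA22.

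The pectin genes were few. PMEPCRF (AT5G53370), a pectin methylesterase, read -1.37 and -1.57 with IVT, -1.26 and -1.03 with 2IVT, -1.01 and -0.85 with PCR, and -1.01 and -0.99 without amplification. It fell in all 4 regimes, by 2.00-fold without amplification. PME61 and GAUT15 passed in none, with means between -0.25 and -0.02.

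A minority of the members had a ratio after amplification that differed from the unamplified one, and the 3 comparisons share the unamplified hybridizations. The log2 ratio after IVT differed for 12 of 54 members, beside 17.2% of all rows, with 7 above the unamplified ratio and 5 below it, beside 8.09% and 9.09%. For 2IVT it differed for 10 of 50 (17% of all rows), 6 above and 4 below, beside 8.21% and 8.81%. For PCR it differed for 14 of 48 (20.8% of all rows), 8 above and 6 below, beside 11.1% and 9.8%, and these were 7 above and 8 below with every hybridization scaled to the same spread. Called differences of at least 2-fold numbered 3 above and 3 below for IVT (3.23% and 2.38% of all rows), 5 above and 2 below for 2IVT (2.32% and 2.93%), and 5 above and 3 below for PCR (2.49% and 3.97%). The members' median difference was -0.03, 0.03 and 0.05, and that of all rows 0.00, 0.02 and 0.05. The fit shared 1 spread per row between regimes, though the median SD over all rows was 0.085 for IVT and 0.152 for 2IVT. Fits of 1 amplified regime and unamplified RNA alone called 2585 rows above and 2994 below for IVT, and 1029 and 1177 for 2IVT. In the shared fit these were 1858 and 2088, and 1780 and 1909. Members in the separate fits numbered 9 and 7 for IVT, and 5 and 4 for 2IVT. By their labels the slides of a regime carry neighbouring numbers, so a batch of slides and a regime cannot be told apart.

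Among expansins the largest difference was that of EXPA24, 2.60 ± 0.19 for IVT and 2.29 ± 0.19 for 2IVT (SE from limma, adjusted p 1.85e-05 and 4.54e-05). EXPA8 differed in all 3 regimes, by 0.60 ± 0.18, 1.61 ± 0.18 and 1.08 ± 0.18, each towards a smaller decrease than in unamplified RNA. EXPA16 after 2IVT and PCR, and EXPA25 after IVT and PCR, also had higher ratios than unamplified, and EXPA4 in the PCR regime (1.13 ± 0.18). EXPA7 was lower than unamplified after IVT, with a difference of -1.27 ± 0.20, and EXPA9 after PCR, with a difference of -0.99 ± 0.16. The IVT difference of EXPA8 no longer passed without either unamplified slide or without IVT slide 1, with values between 0.39 and 0.64, and that of EXPA25 no longer passed on leaving out any 1 of the 4 IVT and unamplified slides, with values between 0.49 and 0.68.

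Among the glucanases GH9B15 showed the widest gap, -2.81 ± 0.53 for PCR (adjusted p = 0.00411 in limma). This was -3.89 without PCR slide 1 and -1.73 without PCR slide 2, and passed in both cases. Its IVT difference of 1.66 ± 0.53 did not pass in the main fit of all 4 regimes. That difference passed in a fit of IVT and unamplified hybridizations alone, with a replicate block and without either PCR slide. The 2IVT difference of GH9B15, -1.15 ± 0.53, did not pass in the main fit and did without either PCR slide. GH9B6 differed from unamplified by -1.71 ± 0.17 after IVT and -0.79 ± 0.17 after 2IVT. GH9B10, GH9B11 and GH9B12 were lower than unamplified after IVT, with differences of -0.95 ± 0.21, -1.05 ± 0.15 and -0.66 ± 0.17, while the difference of their neighbour GH9B9, -0.49 ± 0.20, passed only in a fit of IVT and unamplified hybridizations alone. After PCR GH9B9 was higher than unamplified (1.47 ± 0.20). GH9C1 lay above unamplified after IVT (0.92 ± 0.17) and below it after PCR (-1.06 ± 0.17). With each hybridization scaled to the same spread the IVT difference of GH9C1 became 0.15 and no longer passed. The same scaling ended the IVT calls of GH9B10 (-0.575) and GH9B12 (-0.585), and the PCR difference of GH9B12 passed with it (-0.573). Leaving out 1 slide also ended the calls of GH9B10 and GH9B12 after IVT, at -0.88 to -0.79 and -0.73 to -0.59, and that of GH9B6 after 2IVT, at -0.70 to -0.63. XTH20 and XTH29 were raised over unamplified after IVT by 1.42 ± 0.14 and 1.21 ± 0.18.

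**Figure D5:**
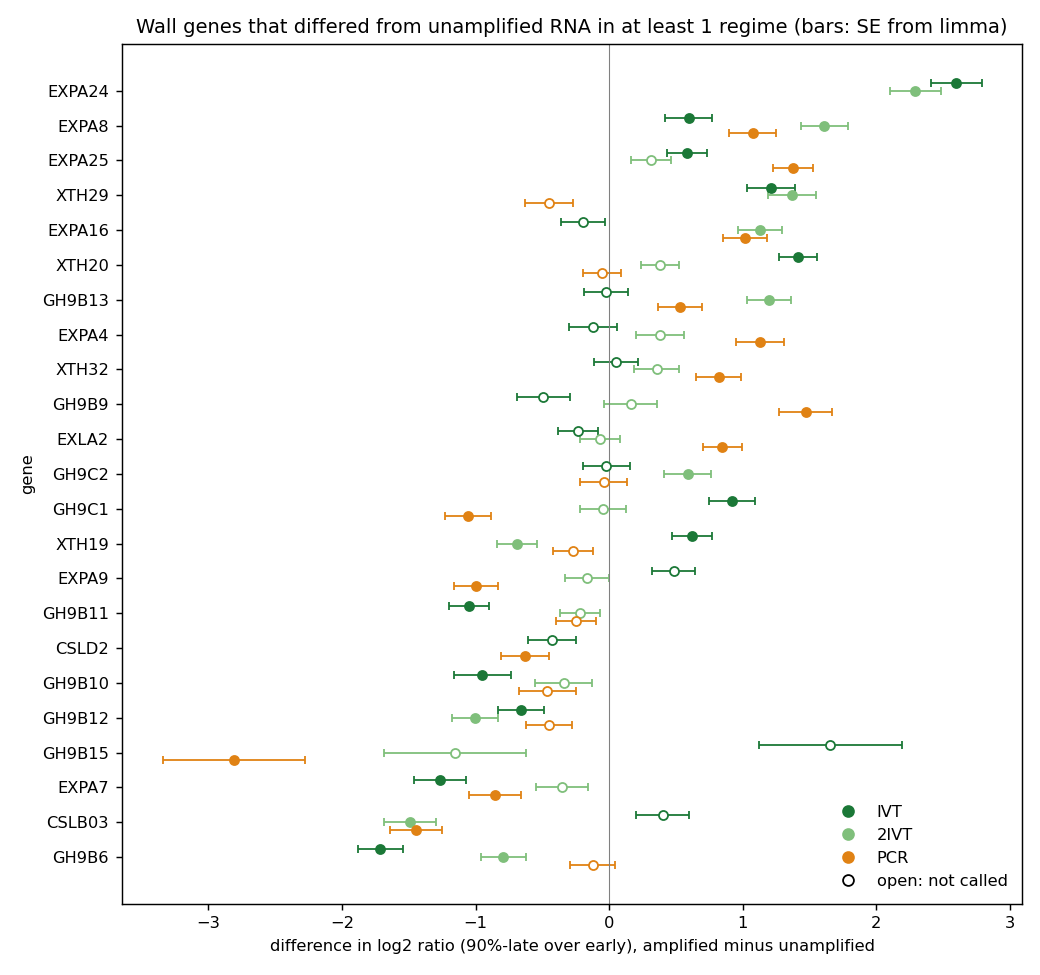
Difference in log2 ratio, amplified minus unamplified (horizontal axis), with its SE from limma, for the 23 members (vertical axis) whose difference passed in at least 1 regime, coloured by regime with open points for differences that did not pass. EXPA24 lies at 2.60 after IVT and 2.29 after 2IVT, and GH9B15 at -2.81 after PCR.

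Wall genes outside these families were listed by symbol as well, and few of the 176 had a named probe with values. Of 3 xylan genes GUT2 (IRX10), a xylan synthesis protein, rose in all 4 regimes, with means of 0.40, 0.60, 0.81 and 1.04 in the order IVT, 2IVT, PCR and unamplified. IRX15, which also acts in xylan synthesis, rose in the 3 regimes that measured it (1.41 after IVT, 1.04 after 2IVT and 1.24 without amplification), and its relative IRX15-L rose after IVT (0.39) and fell after 2IVT (-0.46). Of 2 pectin genes ADPG1, a polygalacturonase of fruit dehiscence, read 4.07 and 3.82 with IVT, 2.08 and 1.82 with 2IVT, 2.17 and 1.60 with PCR, and 5.20 and 5.42 without amplification. It rose in all 4 regimes and unamplified values stood above all others, whereas VGD1, a pectin methylesterase of pollen tubes, fell after IVT (-0.40), rose after 2IVT (0.39) and did not pass without amplification (0.12). The beta-galactosidase BGAL16 rose in all 4 regimes, by 0.38 without amplification, BGAL15 passed in none, and COB, which acts in the orientation of cellulose, fell after PCR only (-0.56).

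Few markers of silique tissues had named probes with values. Of 7 endosperm markers AGL62, IKU2 and PHE1 were measured, with unamplified means of -0.29, 0.05 and -0.25 that did not pass, and AGL62 and PHE1 fell after IVT (-1.17 and -0.59) and 2IVT (-0.85 and -0.47). The seed coat gene BAN, 1 of 8 listed, fell after IVT (-1.45) and without amplification (-0.34), and the valve margin gene ALC, 1 of 5, fell after 2IVT, PCR and without amplification (-0.34, -0.92 and -0.44). Of 11 pollen genes ACT12 and ANX1 were measured and passed in no regime. No listed marker of embryo, xylem and fibre or dividing cells was measured, and the part of tissue composition in the results above was not tested.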

How the data were processed

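For each probe and slide the authors deposited a normalized log2 ratio. Per the methods, GenePix 4.1 intensities were normalized within each slide with SNOMAD elements run from S-PLUS, in steps for the global mean, for the local mean over the surface and for the local mean over intensity. Whether the deposited log2 ratios precede or follow the authors' removal of dim spots, the filling in of low channels and the use of a low power scan is not stated in those sources, so values of dim genes may be affected. Scale and direction are inferred from the dyes and the design: with 10% early material in 90%-late, an early-only gene should not pass 10-fold (log2 3.32), and in the unamplified regime 200 rows passed it towards 90%-late and 1 towards early. The deposited direction was read as early over 90%-late and its sign turned. Intensities were not used here, so signal over background is unknown. The number of arrays, 2 a regime, limits the precision.

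Of 26912 probes 14539 had a single symbol and were averaged per symbol, which left 26651 rows. RefSeq supplied loci and neighbours for all 56 members. Regime means and differences from unamplified were fitted over all 8 hybridizations with limma 3.58.1 (lmFit, eBayes, prior degrees of freedom 6.64) in R 4.3.3, for rows with both values of the regimes compared, with Benjamini-Hochberg adjustment over all such rows and a threshold of 0.05. An exact permutation test of 2 against 2 cannot go below 0.333. The script was tested on simulated data. Tables and plots used Python 3.11.15, pandas 2.3.3, numpy 2.4.6 and matplotlib 3.10.9.

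Genes whose values are given on every hybridization were taken by a rule on size within family, regime and difference (32 genes), and any other member could be named with its family. The members, lists and rule were chosen with earlier results of these data known. Alternatives were median centring, equal spread, unaveraged probes, values on all 8, separate fits, robust eBayes, an added 2-fold limit, a replicate block and leaving out each slide. Replicate numbers name labellings. The replicate differences correlated between regimes at -0.06 to 0.03, so the numbers were not taken to pair the slides.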

Additional observations from a re-analysis of the deposited data

Results flagged for a closer look

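These 36 differences between an amplified regime and unamplified RNA passed limma's test of the difference (amplified minus unamplified, log2 ratio of 90%-late over early, Benjamini-Hochberg adjusted p below 0.05), and their causes were not tested. Of all rows tested, 17.2% passed in the IVT comparison, 17% in 2IVT and 20.8% in PCR.

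After IVT the expansins EXPA24 (2.60), EXPA8 (0.60) and EXPA25 (0.59) were higher than unamplified and EXPA7 (-1.27) lower. The XTH genes XTH20 (1.42), XTH29 (1.21) and XTH19 (0.62) were higher, and so was GH9C1 (0.92). GH9B6 (-1.71), GH9B11 (-1.05), GH9B10 (-0.95) and GH9B12 (-0.66) were lower. After 2IVT EXPA24 (2.29), EXPA8 (1.61), XTH29 (1.37), GH9B13 (1.20), EXPA16 (1.13) and GH9C2 (0.59) were higher, and CSLB03 (-1.49), GH9B12 (-1.0), GH9B6 (-0.79) and XTH19 (-0.69) were lower. The IVT differences of XTH19 and EXPA25 no longer passed on leaving out any 1 of the 4 IVT and unamplified slides, at 0.56 to 0.69 and 0.49 to 0.68, and the 2IVT difference of XTH19 without unamplified slide 1 (-0.62). That of GH9C2 after 2IVT was lost in 7 of 8 cases of leaving out a slide (0.41 to 0.72) and in a fit of 2IVT and unamplified hybridizations alone.

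After PCR GH9B9 (1.47), EXPA25 (1.37), EXPA4 (1.13), EXPA8 (1.08), EXPA16 (1.02), EXLA2 (0.85), XTH32 (0.82) and GH9B13 (0.53) were higher than unamplified, and all 8 had a mean below 0 in the unamplified regime. GH9B15 (-2.81), CSLB03 (-1.44), GH9C1 (-1.06), EXPA9 (-0.99), EXPA7 (-0.85) and CSLD2 (-0.63) were lower, and all 6 had a mean above 0 there. The unamplified mean enters the difference as well, so this split is a description. The difference of GH9B13 no longer passed after median centring (0.48), with equal spread (0.34), in a fit of PCR and unamplified hybridizations alone, or on leaving out any 1 of the 6 PCR, IVT and unamplified slides (0.37 to 0.69). That of EXPA7 was lost without unamplified slide 1 (-0.60) or PCR slide 2 (-0.78), and that of XTH32 without unamplified slide 1 (0.69).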

How the results depend on the processing

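Of 214 results for the 32 genes given in full, 45 changed side of the threshold under some alternative. In 29 the sign changed, in none of them with a pass under either setting, and 15 of these changed with equal spread, among them the IVT differences of CSLA01 (-0.49, then 0.07) and CSLB03 (0.40, then -0.02). With a 2-fold limit the higher and lower counts became 5 and 13 in 2IVT, 2 and 6 in PCR and 5 and 14 in unamplified RNA, and the differences 3 and 3 for IVT, 2 lower for 2IVT, and 5 and 3 for PCR. With equal spread PCR had 8 higher and IVT 3 below unamplified.

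Leaving out 1 slide gave, for IVT, 2IVT, PCR and unamplified, 8 to 11, 7 to 9, 4 to 6 and 7 to 11 higher and 25 to 27, 24 to 26, 15 to 20 and 23 to 25 lower. Differences ranged over 4 to 8, 5 to 8 and 6 to 9 higher and 3 to 6, 2 to 6 and 4 to 6 lower for IVT, 2IVT and PCR. Without unamplified slide 1, 4 members were above unamplified after IVT, 3 below it, and 2 below it after 2IVT. Without unamplified slide 2, 4 were above it after IVT, and without IVT slide 1, 4 were above and 3 below.

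With the replicate number as a block (the numbers do not pair the slides), 10 members were higher and 27 lower in IVT, 9 and 26 in 2IVT, 4 and 18 in PCR, and 11 and 24 in unamplified RNA. The block ended the PCR call of EXLB1 and the differences of GH9B13 for PCR and GH9C2 for 2IVT. Family medians shifted by up to 0.23 with equal spread (EXPA after IVT, -0.78) and 0.36 without PCR slide 2 (EXPB after PCR). Without that slide a gene needed only its value on PCR slide 1, so EXPB2 (0.08) and EXPB4 (0.62) joined EXPB3 and EXPB5 in the EXPB median. Median centring shifted family medians by up to 0.08 and turned that of PME and GAUT without amplification from -0.06 to 0.00. Leaving out 1 slide turned the family medians of EXPB after IVT (-0.02), EXLA and EXLB after PCR (-0.05) and XTH without amplification (-0.05). That of EXPB after PCR (0.08) turned with the added genes. With 2 technical slides a regime, 1 pair of RNA samples and no dye swap, changes between plants were not measured.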
